A study of Mus musculus with 12 samples.

Results

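LGR5+ and LGR5- cells of mouse liver cancer organoids were compared after treatment with 5-fluorouracil (5-FU), a pyrimidine analog that blocks thymidylate synthase and is built into RNA and DNA. The comparison set 3 libraries of 5-FU-treated LGR5+ cells against 3 of 5-FU-treated LGR5- cells, as groups and as 3 pairs that share a replicate number. A gene was a member where its mean reached 10 CPM (reads of a gene scaled to a common library total, after TMM normalization) in either group, which held for 9299 of the 47069 genes in the table. The cells of all groups were LGR5-DTRGFP+ on a C57BL/6 background, so that GFP and the diphtheria toxin receptor were driven by the *Lgr5* promoter. Per the study's methods, sorting on GFP left out dead cells and CD45+ leucocytes. Untreated LGR5+ and untreated LGR5- cells, again with 3 libraries each, carried the same strain, tissue and genotype labels. The titles mark treated libraries as Tr and the others as Co, and the agent comes from the series' design text. The labels give no dose or duration of 5-FU, no age of the mice and no statement that numbered libraries were separate cultures, so p-values cover the spread between these libraries only, which may be technical.

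LGR5 is a receptor for R-spondins, which strengthen canonical Wnt signaling, and it marks stem cells of several epithelia. Keratins are the intermediate filaments of epithelia: *Krt7*, *Krt8*, *Krt18* and *Krt19* are typical of simple epithelia such as bile ducts, *Krt5*, *Krt14* and *Krt15* of the basal layer of stratified epithelia, and *Krt6a*, *Krt16* and *Krt17* of epithelia under stress or repair. Basal epithelial cells hold on to the basement membrane through laminins and integrins, and SNAI2 is a transcription factor known for its part in the epithelial-mesenchymal transition.

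The 6 libraries held 13750591 to 19308778 counted reads. LGR5- replicate 3 stood apart: mitochondrial genes took 6.44% of its reads against 1.47% to 3.08% in the other 5 libraries, and in pair 3 2498 members were at least 1.5-fold higher in LGR5+ cells, against 579 in pair 1 and 289 in pair 2. Results are therefore given with and without replicate 3. *Lgr5* itself did not separate the groups: it stood at 21.1, 18.3 and 35.9 CPM in the LGR5- libraries and at 27.0, 26.8 and 27.2 CPM in the LGR5+ libraries, so the highest value belonged to LGR5- replicate 3. The log2 fold change was 0.11 with a standard error (SE) of 0.23 (adjusted p = 0.842). Without replicate 3 of both groups it was 0.42 (adjusted p = 0.9988), and the LGR5+ library was the higher one in pairs 1 and 2. The paired fit of the 6 libraries gave an adjusted p of 0.774, and a two-sided exact permutation test on CPM gave p = 1.0, where 3 against 3 libraries can reach no p below 0.1. LGR5+ and LGR5- are therefore used below as the labels of the libraries.

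The organoid cells were epithelial by their markers, with *Epcam* at 674 to 1142 CPM in LGR5- and 1134 to 1482 CPM in LGR5+ libraries. Of the hepatocyte markers, *Hnf4a* had no read in 5 of the 6 libraries and 2 reads in LGR5+ replicate 3, *Ttr* had at most 1 read and *Alb* 2 to 33 reads, while *Afp* stood at 25.6 to 54.3 CPM. The duct keratin *Krt7* reached 1273 to 5679 CPM. *Sftpc*, which encodes a surfactant protein of the lung's alveolar cells, reached 2619 to 6037 CPM, and *Nkx2-1*, a lung and thyroid transcription factor, 54.9 to 76.3 CPM. Thus *Hnf4a*, *Ttr* and *Alb* were nearly absent and lung epithelial markers present in libraries labelled as liver cancer. Of 26 hepatocyte markers 3 were members, *Afp* among them. Markers of cell types outside the epithelium ranged widely: *Pecam1* had at most 2 reads, *Cdh5*, *Cpa3* and *Mcpt4* none, and *Ptprc* 5 to 36. The fibroblast marker *Dcn* had 691 to 870 reads in LGR5- and 430 to 694 in LGR5+ libraries, and *Cd68* 283 to 663 and 443 to 932. The 28 macrophage and leucocyte markers summed to 106 to 180 CPM in LGR5- and 126 to 193 CPM in LGR5+ libraries, of which *Cd14*, *Cd68* and *Lyz2* were the members. The markers did not move together. *Cd68* averaged 28.6 CPM in LGR5- and 37.7 CPM in LGR5+ libraries and *Ptprc* 0.769 and 0.981 CPM, and the 3 members had a median log2 fold change of 0.39, with 2 of them higher in every pair. *Tyrobp* had 10 to 20 reads in LGR5- and 2 to 4 in LGR5+ libraries (log2 fold change -2.31, unadjusted p = 0.0329 in edgeR), *C1qa* 2 to 5 against 0, and *Adgre1* 3 to 6 against 0 to 2. Their part in the differences below was not tested. In RNA of pooled cells, fewer cells of a type and less RNA per cell cannot be told apart.

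No member passed an adjusted p of 0.05 in the fit of all 12 libraries by group means, which is the background of 0% among the 16157 genes tested, and the smallest adjusted p was 0.143. At an unadjusted p under 0.05, 1006 members were higher and 388 lower in LGR5+ cells, where 7.42% and 5.55% of all genes tested passed. That balance depended on the scaling: 72.2% of these members were higher after TMM, 66.5% with RLE size factors and 43.0% with library size only, which moved the median of all genes tested from 0.03 to -0.07 (log2). With the thresholds of the study's methods (log2 difference beyond 1.5 in size, unadjusted p below 0.05), 15 members were higher and 5 lower, shares under the 0.347% and 1.35% of all genes tested. These counts moved with single libraries, to 38 and 18 when LGR5- replicate 1 was left out, 24 and 18 when its replicate 2 was, and 10 and 1 when its replicate 3 was. Leaving out LGR5+ replicate 3 gave 15 and 14. Without replicate 3 of both groups they were 6 and 2.

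The replicate numbers were taken as pairs, and the paired fit changed the calls. Deviations from group means correlated more for equal than for unequal numbers, but the labels name no shared culture, so the pairing was inferred. In a fit of the 6 libraries with the replicate block, 186 members passed an adjusted p of 0.05 as higher in LGR5+ cells and 159 as lower, where 1.41% and 1.56% of all genes tested passed in each direction. With the replicate number as a block within each treatment in all 12 libraries, only 2 members were higher (*Cav2* and *Krt6a*) and 1 lower (*Defa21*), so the other paired calls given below rest on the fit of the 6 5-FU libraries. DESeq2 on group means called 47 members higher and 6 lower, where 0.377% and 0.136% of all genes passed. The paired calls fell to 48 and 49 with library size only and to 148 and 96 without pair 1, and stood at 1032 and 580 without pair 2 and 991 and 638 without pair 3, fits in which 2 pairs leave 1 residual degree of freedom per gene. Below, "in the paired fit" refers to the adjusted p of the 3 pairs.

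Across the 3 pairs, 3718 members were higher in LGR5+ cells in every pair, 1791 were lower in every pair and 3790 changed sign between pairs. These are 40.0% and 19.3% of members, beside 29.6% and 22.8% of all genes tested, and with library size only the counts were 2945 and 2458. A difference of at least 1.5-fold in every pair was held by 109 members higher and 46 lower in LGR5+ cells. These are 1.17% and 0.495% of members, beside 1.23% and 1.4% of all genes tested, so members were no richer in such genes. In pairs 1 and 2 alone, 126 members were higher and 52 lower by this rule. Without pair 1 the counts were 194 and 93 and without pair 2 they were 454 and 177. Of the 109 higher members 95 also passed in the paired fit, as did all 46 lower members. Rule and fit used the same pairs, so this is no independent support. Of the 109, 108 were protein-coding, against 32 of the 46, of which the others included mitochondrial ribosomal RNAs and processed pseudogenes. Of the 109, 39 reached 10 CPM only in LGR5+ cells, and of the 46, 16 did so only in LGR5- cells, so the limit admitted these through the group in which they were high.

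**Figure D1:**
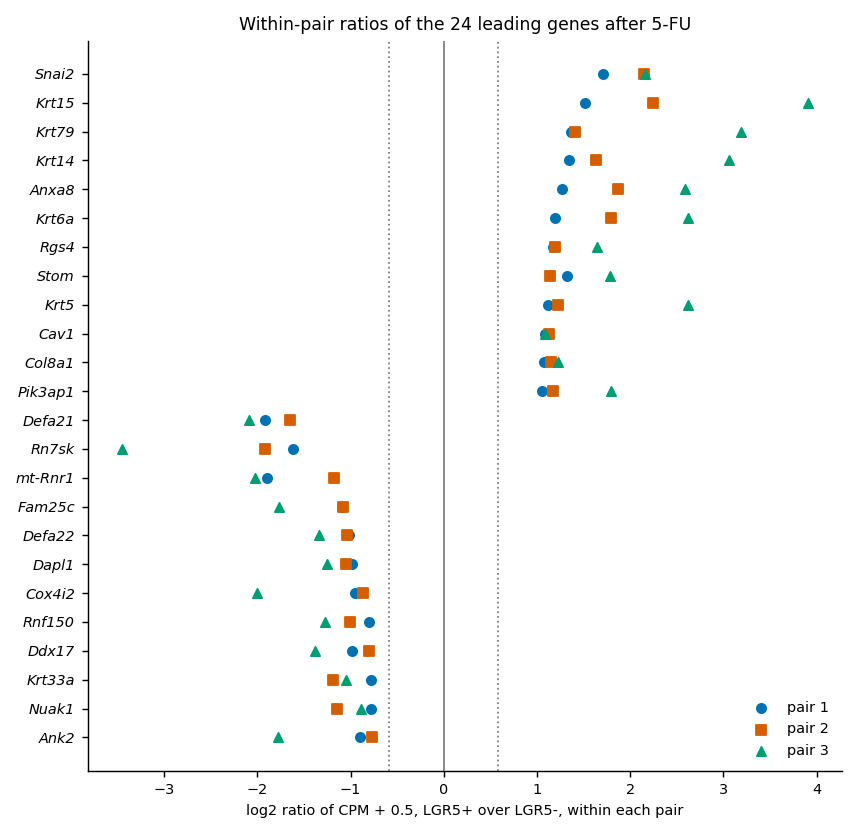
Within-pair log2 ratios of CPM plus 0.5, LGR5+ over LGR5- cells, for the 24 leading genes of both directions after 5-FU; circles, squares and triangles are pairs 1, 2 and 3, the solid line marks no difference and the dotted lines 1.5-fold. By the choice of genes each lies on the same side in its 3 pairs, past 1.5-fold in all. Pair 3 lies farthest out for most of them, with *Krt15* at 15.0-fold.

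*Snai2*, *Krt15*, *Krt79*, *Krt14*, *Anxa8*, *Krt6a*, *Rgs4*, *Stom*, *Krt5*, *Cav1*, *Col8a1* and *Pik3ap1* led the genes higher in LGR5+ cells at an unadjusted p under 0.05, ranked by the smallest of their 3 within-pair ratios. Each was at least 2-fold higher in every pair, and 11 of the 12 passed in the paired fit, *Krt15* being the exception (adjusted p = 0.053). The ranking used the same pairs as this fit, so the p-values of the fit are no independent support. *Snai2* rose in the paired fit from 2.18, 2.69 and 1.69 CPM in LGR5- replicates 1 to 3 to 8.26, 13.6 and 9.30 CPM in LGR5+ replicates 1 to 3. The lowest LGR5+ value was thus above the highest LGR5- value. Its log2 fold change was 2.24 (SE 0.38, unadjusted p = 3e-05, adjusted p = 0.143), with an adjusted p of 0.00728 in the paired fit, and 2.14 without replicate 3.

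*Krt14*, the partner of *Krt5* in basal epithelial filaments, stood at 127, 193 and 66.5 CPM in LGR5- and at 323, 597 and 558 CPM in LGR5+ libraries. *Krt5* stood at 123, 187 and 52.7 CPM against 267, 439 and 326 CPM. In both genes LGR5- replicate 3 was the lowest library and the groups did not overlap. The log2 fold change of *Krt14* was 1.94 (SE 0.39, paired adjusted p = 0.0158) and 1.498 without replicate 3, and that of *Krt5* was 1.51 (SE 0.45, paired adjusted p = 0.0232) and 1.16 without it. *Krt15*, also a basal keratin, had 18.8, 46.5 and 11.5 CPM in LGR5- and 54.6, 222 and 179.8 CPM in LGR5+ libraries, a ratio of 2.86 in pair 1 and 15.0 in pair 3.

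The stress keratin *Krt6a* was at 34.4, 50.1 and 27.8 CPM against 79.5, 175 and 174 CPM, and LGR5+ replicate 1 was well below the other LGR5+ libraries. *Krt79*, a keratin of skin glands and hair canals, was at 99.6, 209 and 44.5 CPM against 257, 558 and 409 CPM. Its log2 fold change was 1.79 (SE 0.44, paired adjusted p = 0.027) and 1.37 without replicate 3. Keratin genes have close copies, so reads can be shared between them and the split is uncertain. *Anxa8*, a calcium-dependent membrane-binding annexin, was at 9.59, 9.31 and 4.55 CPM in LGR5- and at 23.7, 35.4 and 29.8 CPM in LGR5+ libraries (paired adjusted p = 0.00904).

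*Cav1*, the main coat protein of caveolae, showed the most even ratios of the 12 genes, 2.13, 2.18 and 2.13 in pairs 1 to 3. It was at 7.30, 7.14 and 8.07 CPM in LGR5- and at 16.1, 16.2 and 17.7 CPM in LGR5+ libraries, with a log2 fold change of 1.15 (SE 0.25, paired adjusted p = 0.0176) and 1.13 without replicate 3. *Cav2*, its partner in caveolae, and *Gabrp*, a subunit of the GABA-A receptor, were not among the 12 and were chosen after their values were seen. They had log2 fold changes of 1.23 (SE 0.21) and 1.17 (SE 0.20), and passed in the paired fit with adjusted p of 0.00904 and 0.0103. *Stom*, a membrane protein of lipid rafts, ranged from 10.8 to 20.8 CPM in LGR5- and from 27.8 to 46.3 CPM in LGR5+ libraries. *Rgs4*, a brake on G protein signaling, ranged from 3.94 to 5.68 against 9.50 to 15.0 CPM, *Col8a1*, a short-chain collagen, from 4.18 to 6.67 against 9.33 to 15.4 CPM, and *Pik3ap1*, an adaptor of PI3-kinase, from 2.93 to 4.92 against 8.601 to 11.7 CPM. The groups did not overlap in these 4 genes, of which *Rgs4*, *Col8a1* and *Pik3ap1*, like *Snai2*, *Anxa8* and *Cav1*, reached 10 CPM only in LGR5+ cells and so were admitted by the group in which they were high.

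**Figure D2:**
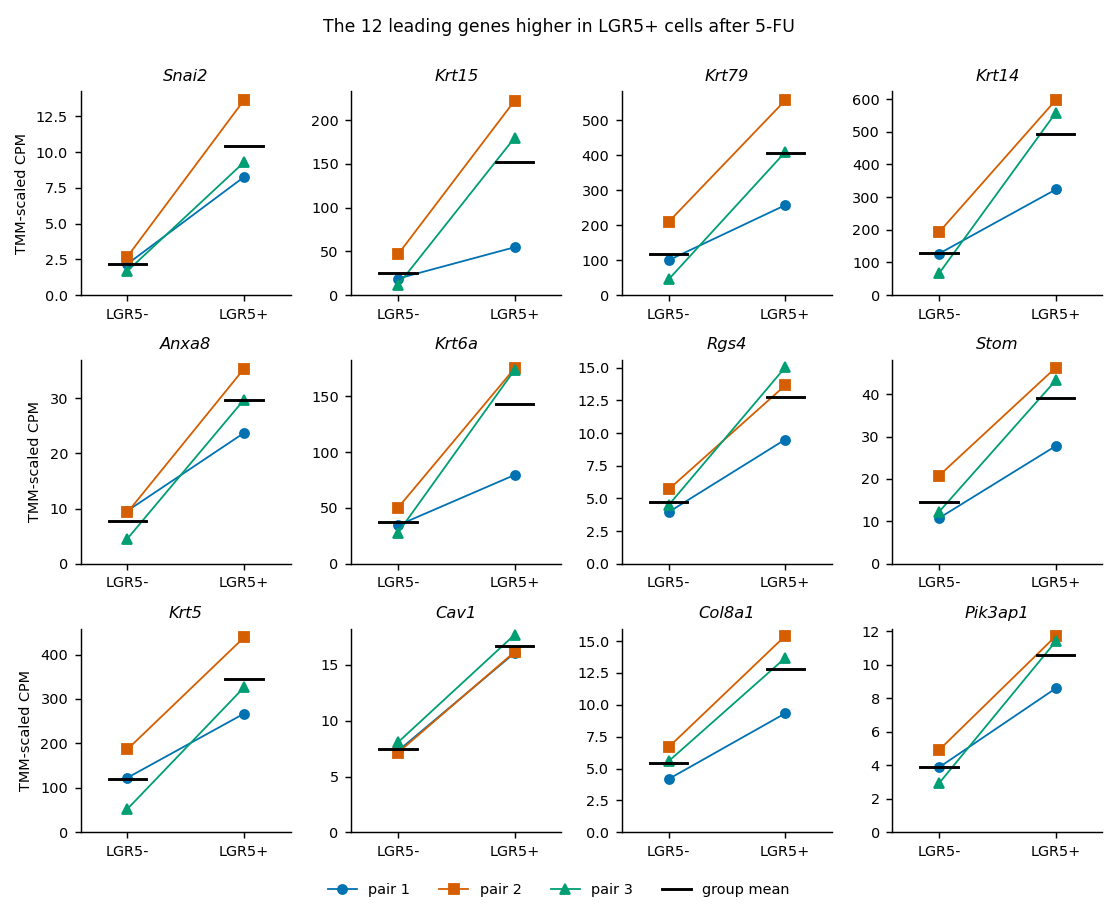
TMM-scaled CPM of the 12 leading genes higher in LGR5+ cells after 5-FU, 1 panel per gene with an axis from 0; lines join the LGR5- and LGR5+ library of a pair and black bars are group means (n = 3). Every line rises, as the choice of genes required, and LGR5- replicate 3 is the lowest of the 6 libraries in *Snai2*, *Krt15*, *Krt79*, *Krt14*, *Anxa8*, *Krt6a*, *Krt5* and *Pik3ap1*, 8 of the 12.

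The list of stratified and stress keratins with squamous barrier genes had 26 members among its 41 genes, and its median log2 fold change of 0.92 compared with 0.12 over all members and 0.03 over all genes tested. The 41 genes summed to 9371 to 11220 CPM in LGR5- and 9844 to 12280 CPM in LGR5+ libraries, ranges that overlapped. The median thus describes single genes and not the list's summed level. Of the 26, 21 were higher in every pair and 1 lower in every pair, and 11 were at least 1.5-fold higher in each, where 40.0% of all members and 29.6% of all genes tested were higher in every pair. The limit admitted 6 of the 26 only through LGR5+ cells. Of the 24 with a mean of 10 CPM over the 6 libraries, 19 were higher in every pair, 10 by at least 1.5-fold, with a median of 0.90. In the group-means fit 16 were higher and none lower at an unadjusted p under 0.05. Among all members 10.8% were higher and 4.17% lower at that p, and among all genes tested 7.42% and 5.55%. In the paired fit 10 passed, all higher, beside 2% of members and 1.41% of all genes. *Lypd3*, a surface protein of stratified epithelium, stood at 12.1, 13.1 and 6.53 CPM against 23.7, 29.9 and 28.9 CPM (paired adjusted p = 0.0183). *Krt16* reached a log2 fold change of 2.28 (SE 0.47) but an adjusted p of 0.105 in the paired fit, as its ratio ran from 1.96 in pair 1 to 15.4 in pair 3. The list's median was 0.77, 0.98 and 1.47 in pairs 1 to 3 and 0.64 without replicate 3. The 6 simple epithelial keratins had a median of 0.91, and 0.45 without replicate 3. *Krt7* was at 1918, 3515 and 1273 CPM against 3288, 4902 and 5679 CPM, groups that overlapped, with an adjusted p of 0.0645 in the paired fit. Only *Krt20*, a keratin of intestinal and urothelial surface cells, passed there, at 5.94, 8.43 and 3.81 CPM against 13.3, 13.9 and 12.04 CPM (adjusted p = 0.034), and it reached 10 CPM only in LGR5+ cells.

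Of the 18 members among genes of plasminogen activation, metalloproteinases, laminins and integrins, 13 were higher in every pair (72.2%, against 40.0% of all members and 29.6% of all genes tested) and 1 lower. At an unadjusted p under 0.05, 9 were higher, beside 10.8% of all members and 7.42% of all genes tested. In the paired fit 6 passed, all higher, beside 2% of members and 1.41% of all genes. *Snai2* was counted in this list and reached 10 CPM only in LGR5+ cells. *Lamb3*, a chain of laminin-332 that anchors basal cells, stood at 33.4, 39.8 and 27.7 CPM in LGR5- and at 67.6, 64.1 and 62.6 CPM in LGR5+ libraries, with a log2 fold change of 0.94 (SE 0.20, paired adjusted p = 0.0201) and 0.81 without replicate 3. *Timp3*, an inhibitor of metalloproteinases, was at 63.9, 85.0 and 55.9 CPM against 108, 115 and 142 CPM (paired adjusted p = 0.0439). Among 14 epithelial cytokines and chemokines, 6 were higher at an unadjusted p under 0.05, where 10.8% of all members and 7.42% of all genes tested were, and *Cxcl3*, which attracts neutrophils, passed in the paired fit (adjusted p = 0.027), at 4.36, 4.80 and 4.47 CPM against 12.4, 8.58 and 11.99 CPM. It reached 10 CPM only in LGR5+ cells.

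Genes of mitosis were higher in LGR5+ cells in every pair in 29 of 32 members (90.6%, against 40.0% of all members and 29.6% of all genes tested) and lower in every pair in 1. Their median log2 fold change was 0.57, and 0.62, 0.38 and 0.63 in pairs 1 to 3. In the group-means fit 8 passed an unadjusted p of 0.05, all higher, beside 10.8% of all members and 7.42% of all genes tested. In the paired fit 7 passed, all higher, beside 2% of members and 1.41% of all genes. *Prc1*, a bundler of the central spindle, was at 25.8, 22.2 and 10.4 CPM against 54.1, 33.9 and 30.3 CPM (paired adjusted p = 0.027), and *Kif20a*, a kinesin of cytokinesis, at 18.3, 18.1 and 7.63 CPM against 42.0, 28.7 and 22.8 CPM (paired adjusted p = 0.0249). *Ccnb1*, the cyclin that starts mitosis, was at 78.5, 56.0 and 42.7 CPM against 146, 89.3 and 77.7 CPM, so that LGR5+ replicate 3 lay below LGR5- replicate 1 and the groups overlapped, while each pair differed by at least 1.59-fold. Of the 33 members for DNA replication and S phase 20 were higher in every pair (60.6%), none passed an unadjusted p of 0.05 in the group-means fit, and 2 passed in the paired fit, both higher. They were *Mcm4*, a subunit of the replicative helicase (adjusted p = 0.0344), and *Rrm1*, the large subunit of ribonucleotide reductase, which was named after its values were seen.

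Canonical Wnt targets and R-spondin receptors, the pathway of LGR5, had 20 members with a median log2 fold change near 0 (-0.000484), 5 higher and 6 lower in every pair (25.0% and 30.0%, against 40.0% and 19.3% of all members and 29.6% and 22.8% of all genes tested). With library size only, 5 and 9 were. Those lower at an unadjusted p under 0.05 were *Prox1*, *Axin2* and *Ephb2*, and *Myc* was higher. *Prox1*, a homeobox factor of liver and lymphatic cells, fell in the paired fit, from 51.1, 41.3 and 45.6 CPM to 32.5, 26.1 and 21.7 CPM (adjusted p = 0.027). *Axin2*, a feedback inhibitor of Wnt signaling, stood at 106, 86.3 and 84.6 CPM against 68.9, 66.2 and 52.1 CPM, with a log2 fold change of -0.56 (SE 0.23, paired adjusted p = 0.0444). *Ephb2*, an ephrin receptor of intestinal crypts, did not pass there (adjusted p = 0.0765). Of 16 epithelial progenitor markers, 9 were higher in every pair (56.2%), 3 at an unadjusted p under 0.05 and none in the paired fit. Of all members 10.8% and of all genes tested 7.42% were higher at that unadjusted p. *Prom1*, which encodes CD133, was at 10.005, 9.95 and 9.68 CPM against 18.0, 14.4 and 14.7 CPM (paired adjusted p = 0.0645).

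Among 34 p53 targets 21 were higher in every pair and 3 lower (61.8% and 8.82%, against 40.0% and 19.3% of all members and 29.6% and 22.8% of all genes tested). At an unadjusted p under 0.05, 7 were higher and 1 lower. At that p 10.8% and 4.17% of all members and 7.42% and 5.55% of all genes tested were. In the paired fit 3 were higher, beside 2% of members and 1.41% of all genes. *Perp*, a desmosomal protein, was at 312, 482 and 333 CPM against 557, 684 and 872 CPM (paired adjusted p = 0.0449). *Sfn*, the 14-3-3 protein of stratified epithelium, was at 74.2, 108 and 54.4 CPM against 133, 162 and 156 CPM (0.0344). *Gtse1*, a microtubule-binding inhibitor of p53, was at 54.6, 67.4 and 36.1 CPM against 82.2, 93.0 and 79.9 CPM (0.0496). *Perp* and *Sfn* are also genes of stratified epithelium, and the median of the list was 0.29, and 0.17 without replicate 3. Of 24 AP-1 and immediate early genes, 4 were higher at an unadjusted p under 0.05 (beside 10.8% of all members and 7.42% of all genes tested) and 2 passed in the paired fit (beside 2% of members and 1.41% of all genes). *Nr4a1*, an orphan nuclear receptor induced by growth signals, had ratios of 1.77, 1.82 and 1.87 (paired adjusted p = 0.0382) and reached 10 CPM only in LGR5+ cells. *Ccn2*, a YAP target, was at 35.1, 53.5 and 36.4 CPM against 54.1, 76.8 and 77.6 CPM (0.042).

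For the enzymes and transporters of 5-FU, 16 of 31 genes were members, 1 was higher at an unadjusted p under 0.05 and none lower, beside 10.8% and 4.17% of all members and 7.42% and 5.55% of all genes tested. *Rrm1* alone passed in the paired fit, beside 2% of members and 1.41% of all genes that were higher there. The median of the 16 was 0.10 against 0.12 over all members. *Tdg*, which removes uracil and 5-FU from DNA, was at 8.06, 9.66 and 2.86 CPM against 13.8, 12.1 and 11.6 CPM and did not pass in the paired fit (adjusted p = 0.0744). *Umps*, which turns 5-FU into its nucleotide, was at 39.1, 35.1 and 19.7 CPM against 63.5, 43.8 and 40.0 CPM (0.0542), and *Slc29a1*, a nucleoside transporter, at 86.0, 60.6 and 57.8 CPM against 71.96, 40.1 and 43.0 CPM (0.0628). Of 11 members of the BCL2 family, *Mcl1* was higher and *Bcl2l2* lower at an unadjusted p under 0.05, both survival factors, and none passed in the paired fit. *Ces2e* and *Ces2g*, carboxylesterases of liver and gut, passed there, at 11.0, 18.9 and 17.4 CPM against 23.4, 32.4 and 42.8 CPM (0.0183) and at 5.77, 4.68 and 6.02 CPM against 11.2, 9.19 and 14.1 CPM (0.0314), and *Ces2g* reached 10 CPM only in LGR5+ cells.

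The counts in the next lists stand beside 10.8% of all members and 7.42% of all genes tested that were higher at an unadjusted p under 0.05. Of 19 members of the unfolded protein response 6 were higher at an unadjusted p under 0.05, led by *Hyou1* and *Pdia4*, and *Pdia4*, a disulfide isomerase, passed in the paired fit (adjusted p = 0.0468). Of 25 sterol and fatty acid genes 4 were higher at that p and 17 were higher in every pair, beside 40.0% of all members. Genes of the ATF4 stress response had no member of 22 past an unadjusted p of 0.05, and NRF2 antioxidant genes 1 of 21 (*Gclc*), interferon and antigen presentation 2 of 27 (*Irf1* and *H2-T23*), EGF family ligands and receptors 3 of 7 (*Erbb2*, *Egfr* and *Areg*) and the Notch pathway 3 of 8 (*Notch2*, *Jag2* and *Notch1*), all higher and none passing in the paired fit. The median of the Notch list, 0.06, was below that of all members. In the EGF and Notch lists, 2 members each reached 10 CPM only in LGR5+ cells. In glycolysis and hypoxia *Hk1* was higher and *Hk2* lower among 30 members at an unadjusted p under 0.05, and *Hk1* (higher) and *Ankrd37* (lower, named after its values were seen) passed in the paired fit. *Gapdh*, which has many near-identical copies in the genome, ranged from 11.8 to 233 CPM in LGR5+ libraries, so its level is uncertain. Of 17 surfactant and lung epithelium members *Cyp2f2* and *Slc34a2* were higher at an unadjusted p under 0.05 and *Sftpb* and *Scgb1a1*, the latter named after its values were seen, were higher in the paired fit, with a list median of 0.10, and 0.04 without replicate 3. Of the 48 genes that the study itself lists for this comparison, only *Snai2*, *Anxa8* and *Ppbp* reached 10 CPM. They were at least 1.5-fold higher in every pair, which is no independent evidence, since the study chose that list on these libraries.

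**Figure D3:**
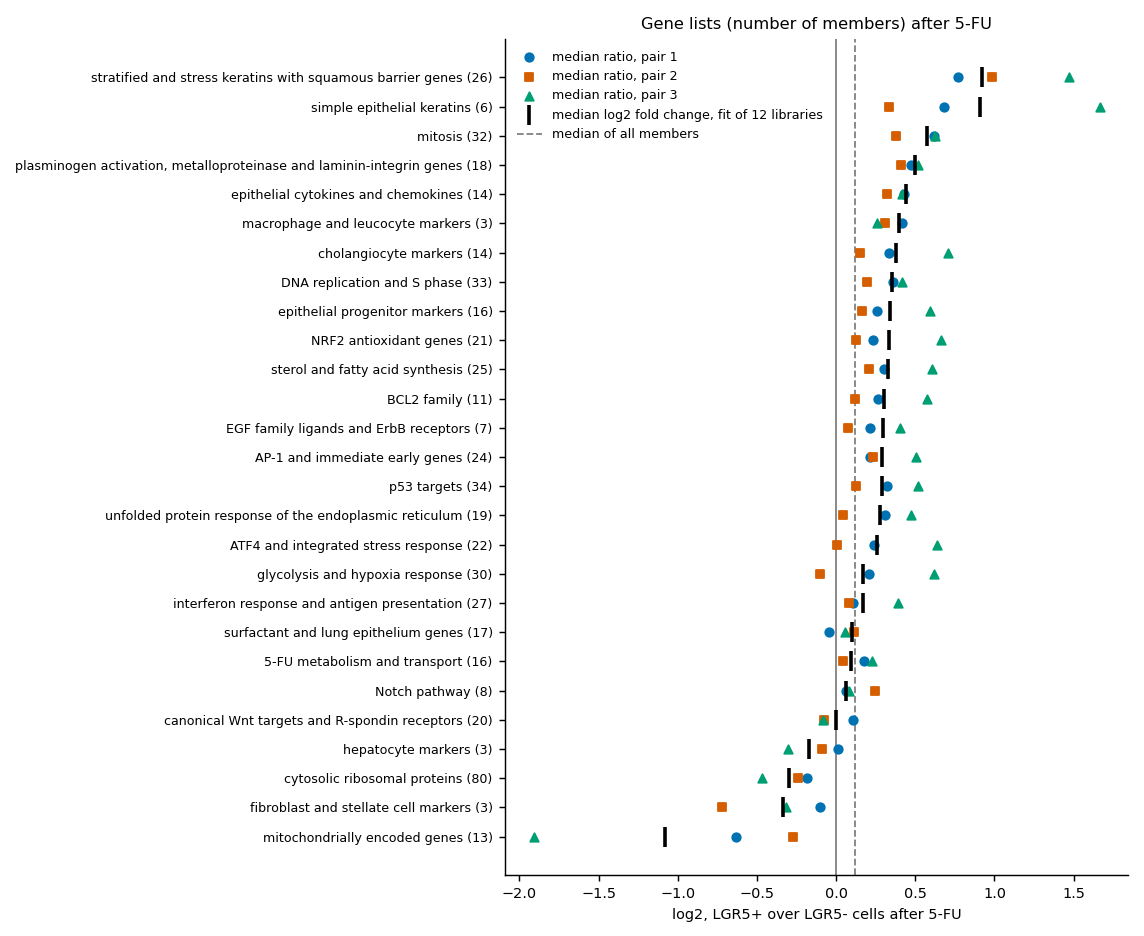
Median log2 difference between LGR5+ and LGR5- cells after 5-FU for each list with at least 3 members other than the study's own, the number of members in brackets; black ticks are medians of the fitted log2 fold changes over 12 libraries, coloured symbols medians of the within-pair ratios, and the dashed line the median of all members (0.12). The stratified keratins (0.92) are at the top, mitochondrially encoded genes (-1.08) at the bottom, and pair 3 is the most extreme in most lists.

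*Defa21*, *Rn7sk*, *mt-Rnr1*, *Fam25c*, *Defa22*, *Dapl1*, *Cox4i2*, *Rnf150*, *Ddx17*, *Krt33a*, *Nuak1* and *Ank2* led the genes lower in LGR5+ cells among those with an unadjusted p under 0.05 in the group-means fit. All 12 passed in the paired fit, which used the pairs they were ranked on and is no independent support. The limit on the unadjusted p left out *Prr9*, *Mybpc1* and *Igfbp5*, whose smallest within-pair ratios were as large and which were named after their values were seen. *Prr9* stood at 93.8, 144.5 and 166 CPM in LGR5- and at 23.7, 50.5 and 43.3 CPM in LGR5+ libraries (unadjusted p = 0.0669 in the group-means fit, adjusted p = 0.00109 in the paired fit). *Defa21*, an alpha-defensin of the kind that Paneth cells secrete against bacteria, fell from 104, 103 and 257 CPM in LGR5- to 27.2, 32.7 and 60.0 CPM in LGR5+ libraries. The groups did not overlap, and replicate 3 was the highest in each of them. The log2 fold change was -1.95 (SE 0.41), -1.82 without replicate 3, with an adjusted p of 0.00109 in the paired fit. *Defa22* fell from 49.2, 67.0 and 144 CPM to 24.1, 32.5 and 56.5 CPM (paired adjusted p = 0.00861), groups that overlapped across pairs but differed by 2.02 to 2.53-fold within them. *Defa5* and *Defa34*, chosen after their values were seen, were also at least 1.5-fold lower in every pair. Alpha-defensin genes are near-identical copies, so reads may have been shared between them and the genes are not independent.

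Of the promoters below, those of *Krt14* and *Cav1* stand for the genes higher in LGR5+ cells and those of *Defa21* and *Defa22* for the genes lower, since they show how alike the sequences of this last pair are. The 250 bases before the start were taken from RefSeq on GRCm38.p6, 5′ to 3′ on the strand of the gene, at chr11:100206031-100206280 (minus), chr6:17306085-17306334 (plus, 1 of 2 windows), chr8:21025295-21025544 (plus) and chr8:21162027-21162276 (plus). Capitals mark matches to the TATA box TATAAA, the AP-1 site TGANTCA or the TEAD site GGAATG on either strand, and each of these windows held 1 match.
Krt14: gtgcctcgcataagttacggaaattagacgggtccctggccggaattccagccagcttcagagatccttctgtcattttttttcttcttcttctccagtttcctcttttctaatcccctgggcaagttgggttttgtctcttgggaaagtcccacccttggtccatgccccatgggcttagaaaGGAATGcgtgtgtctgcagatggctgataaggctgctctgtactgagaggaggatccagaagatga
Cav1: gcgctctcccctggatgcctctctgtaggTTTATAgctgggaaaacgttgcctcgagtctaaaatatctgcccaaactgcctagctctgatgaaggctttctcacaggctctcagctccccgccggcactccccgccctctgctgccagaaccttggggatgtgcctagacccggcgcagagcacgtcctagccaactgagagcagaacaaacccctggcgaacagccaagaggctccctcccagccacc
Defa21: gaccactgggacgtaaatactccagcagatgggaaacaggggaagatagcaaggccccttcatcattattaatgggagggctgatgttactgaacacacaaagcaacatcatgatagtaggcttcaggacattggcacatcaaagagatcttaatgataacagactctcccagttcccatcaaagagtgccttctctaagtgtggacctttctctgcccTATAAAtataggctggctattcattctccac
Defa22: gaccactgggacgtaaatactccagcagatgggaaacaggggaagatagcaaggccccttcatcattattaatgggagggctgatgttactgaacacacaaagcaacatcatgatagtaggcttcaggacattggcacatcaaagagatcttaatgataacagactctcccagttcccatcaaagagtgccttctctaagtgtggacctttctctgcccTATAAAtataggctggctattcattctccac
The windows of *Defa21* and *Defa22* were the same in all 250 bases, with TATAAA beginning 31 bases before the start. The *Krt14* window held GGAATG beginning 66 bases before it, and that of *Cav1* a TATAAA on the opposite strand 221 bases before it, while the windows of *Krt5*, *Krt79* and *Anxa8* held none of the 3 motifs. Windows were found for 83 of the 109 and 24 of the 46 genes that held in every pair. TATAAA was in 13.3% of the 83 and 41.7% of the 24, among which are alpha-defensins, against 7.59% of 7192 members and 14.3% of all 27025 genes with a window, so the share in the higher genes lay below that of all genes. TGANTCA was in 13.3% and 12.5%, against 5.17% of members and 7.82% of all genes, and GGAATG in 22.9% and 12.5%, against 12.7% and 14.4%. A match is a description of letters and not of a bound site.

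*Rn7sk*, the small nuclear RNA that holds back the elongation factor P-TEFb, fell from 25.5, 52.4 and 131 CPM to 7.98, 13.5 and 11.5 CPM (paired adjusted p = 0.024). LGR5- replicate 3 was the highest by far, and the log2 fold change went from -2.66 (SE 0.79) to -1.89 without replicate 3. *mt-Rnr1*, the small ribosomal RNA of mitochondria, fell from 1013, 433 and 1120.1 CPM to 272, 191 and 275 CPM (paired adjusted p = 0.00861), and in this gene LGR5- replicate 1 was nearly as high as replicate 3. Of the 13 mitochondrially encoded members none was higher and 8 were lower in every pair, 5 were lower at an unadjusted p under 0.05 and 3 passed in the paired fit. Among all members 19.3% were lower in every pair, 4.17% at that p and 1.71% in the paired fit, and among all genes tested 22.8%, 5.55% and 1.56%. The median log2 fold change of the 13 was -1.08 in all libraries and -0.55 without replicate 3, and their summed level was 19630 to 64920 CPM in LGR5- and 15330 to 20770 CPM in LGR5+ libraries. The part of this mitochondrial share in the other differences was not tested. Cytosolic ribosomal protein genes were lower in every pair in 59 of 80 members (73.8%, against 19.3% of all members and 22.8% of all genes tested) and higher in 2, with a median of -0.30 and 2 passing in the paired fit. With library size only, 72 were lower in every pair and 1 higher, and the median was -0.41. That scaling moved the median of all members from 0.12 to 0.02 and turned the sign of the medians of the surfactant and lung list (-0.00124), 5-FU metabolism (-0.01), the Notch pathway (-0.04) and the globin gene (-0.01).

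*Fam25c*, *Dapl1*, *Cox4i2* and *Rnf150* reached 10 CPM only in LGR5- cells. *Ddx17*, an RNA helicase, was at 129.7, 122 and 166 CPM in LGR5- and at 65.2, 69.7 and 63.7 CPM in LGR5+ libraries, so the groups stood well apart, and its log2 fold change was -1.07 (SE 0.32, paired adjusted p = 0.0154) and -0.93 without replicate 3. *Nuak1*, a kinase of the AMPK family, was at 23.7, 21.9 and 23.5 CPM against 13.6, 9.63 and 12.5 CPM (paired adjusted p = 0.0161). *Krt33a*, a hair keratin, was lower, unlike the keratins above, at 41.0, 47.2 and 35.8 CPM against 23.6, 20.5 and 17.0 CPM (0.0133). *Ank2*, an ankyrin that ties membrane proteins to spectrin, ranged from 35.4 to 61.6 against 17.7 to 28.0 CPM. *Rnf150*, a RING finger protein, ranged from 9.43 to 12.2 against 3.80 to 6.802 CPM, and *Dapl1* from 8.37 to 15.9 against 3.80 to 7.25 CPM. *Fam25c* ranged from 10.1 to 29.7 against 4.44 to 9.52 CPM, and *Cox4i2*, a subunit of cytochrome c oxidase, from 4.06 to 17.7 against 1.86 to 5.61 CPM, where the groups overlapped. Without replicate 3 the group-means fit gave *Cox4i2* a log2 fold change of -1.002 against -1.49 with it.

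**Figure D4:**
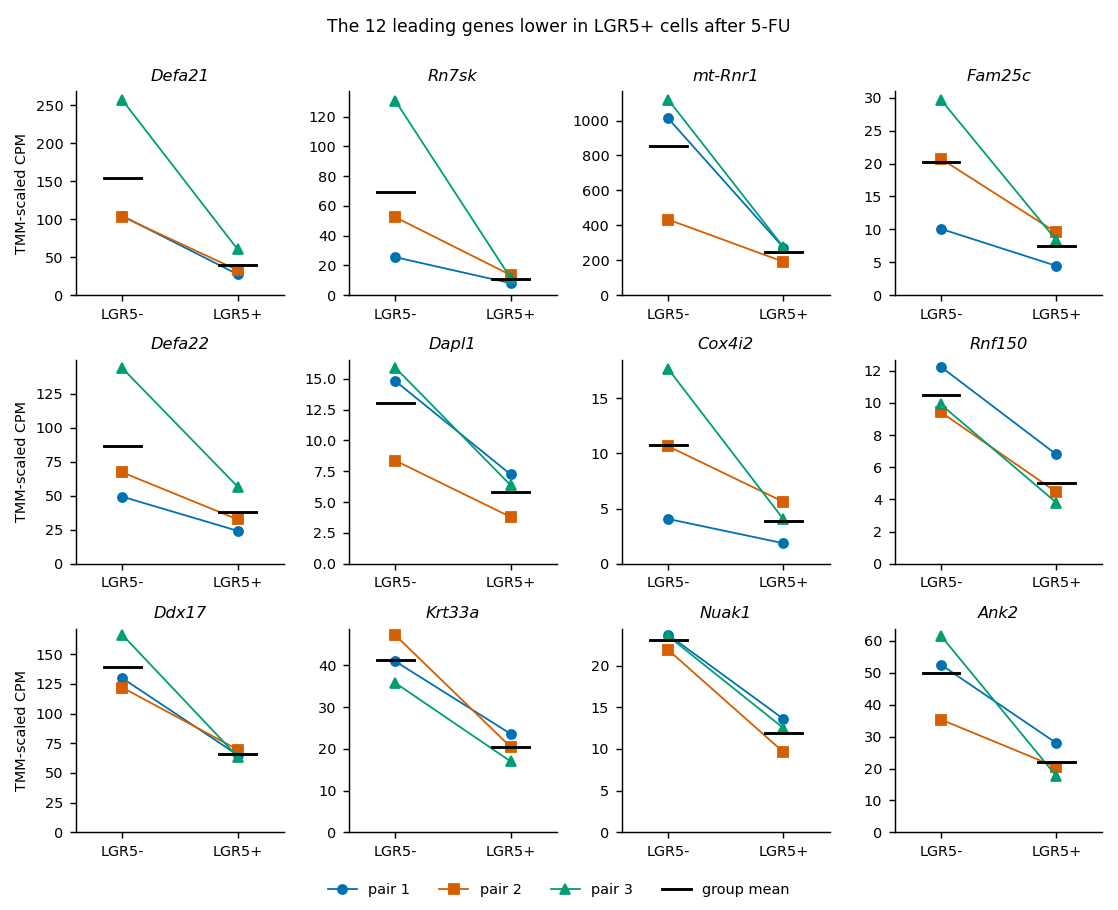
TMM-scaled CPM of the 12 leading genes lower in LGR5+ cells after 5-FU, 1 panel per gene with an axis from 0; lines join the libraries of a pair and black bars are group means (n = 3). Every line falls, as the choice of genes required, and LGR5- replicate 3 is the highest of the 6 libraries in 9 of the 12, the exceptions being *Rnf150*, *Krt33a* and *Nuak1*.

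Among markers of cell types outside the epithelium the paired fit gave 1 call. *Dcn*, a proteoglycan of connective tissue, fell in the paired fit from 51.2, 40.5 and 58.5 CPM to 39.0, 23.7 and 31.7 CPM (adjusted p = 0.0346), while the collagens *Col1a1* and *Col3a1* had at most 6 reads in a library. The 18 fibroblast markers summed to 793 to 1061 CPM in LGR5- and 1119 to 1553 CPM in LGR5+ libraries, mostly *Sparc*. The 16 endothelial markers summed to 20.6 to 35.1 CPM against 26.1 to 35.5 CPM, the 12 mast cell markers to 18.4 to 36.6 CPM against 28.8 to 42.8 CPM, and the 26 hepatocyte markers to 87.0 to 122.8 CPM against 81.8 to 128 CPM. The only endothelial member was *Esam*, at 9.10 to 16.5 against 12.8 to 18.3 CPM, and the mast cell members were *Kit* and *Hdc*. *Hba-a1* was the only globin gene among the members. Of the 14 cholangiocyte members 8 were higher in every pair (57.1%, against 40.0% of all members and 29.6% of all genes tested), and none passed in the paired fit.

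Fewer of the members, which were chosen on 5-FU cells, met the rule on pairs in untreated cells, and no difference between the treatments passed its test. The rule of 1.5-fold in every pair was met by 2 members higher and 1 lower in untreated LGR5+ cells, none of them among the 155 of the 5-FU cells, and the untreated numbers did not pair the libraries as well. Members were admitted by their level in 5-FU cells, while 9182 genes met the same limit in untreated cells. The 0.5 CPM added also shrinks ratios of genes that are low in untreated cells, so these counts are not evenly comparable with 109 and 46. No share over all genes was counted for this rule in untreated cells. In the test of the difference between the treatments no member passed an adjusted p of 0.05 (background 0%), in edgeR or in DESeq2, and 136 passed an unadjusted p of 0.05 in edgeR, where the smallest adjusted p was 0.9998. Untreated LGR5- replicate 3 stood apart as its 5-FU counterpart did, with 6.93% of reads from mitochondrial genes against 1.49% to 2.08% in the other untreated libraries. In the fit of 12 libraries, 95 of the 109 higher members had a positive log2 fold change in untreated cells and 40 of the 46 lower members a negative one, beside 49.8% and 50.2% of all members. In the mean ratio of untreated pairs 1 and 2 alone, an alternative chosen after seeing the data, 85 of the 109 were positive and 19 of the 46 negative, beside 43.5% and 56.5% of all members. This alternative changed both the libraries and the measure, so the change for the lower members cannot be assigned to replicate 3 alone. *Krt14* had a log2 fold change of 0.60 (SE 0.39) in untreated against 1.94 in 5-FU cells (unadjusted p of the difference 0.0273), and *Krt6a* 1.85 (SE 0.61) against 1.93 (0.929). Both genes were chosen on the 5-FU cells, so these p-values are no independent test of a difference. The levels themselves differed: *Krt6a* was at 0.242 to 3.38 CPM in the 6 untreated libraries and at 27.8 to 175 CPM in the 6 of 5-FU cells, and *Krt14* at 13.2 to 34.8 CPM and 66.5 to 597 CPM.

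**Figure D5:**
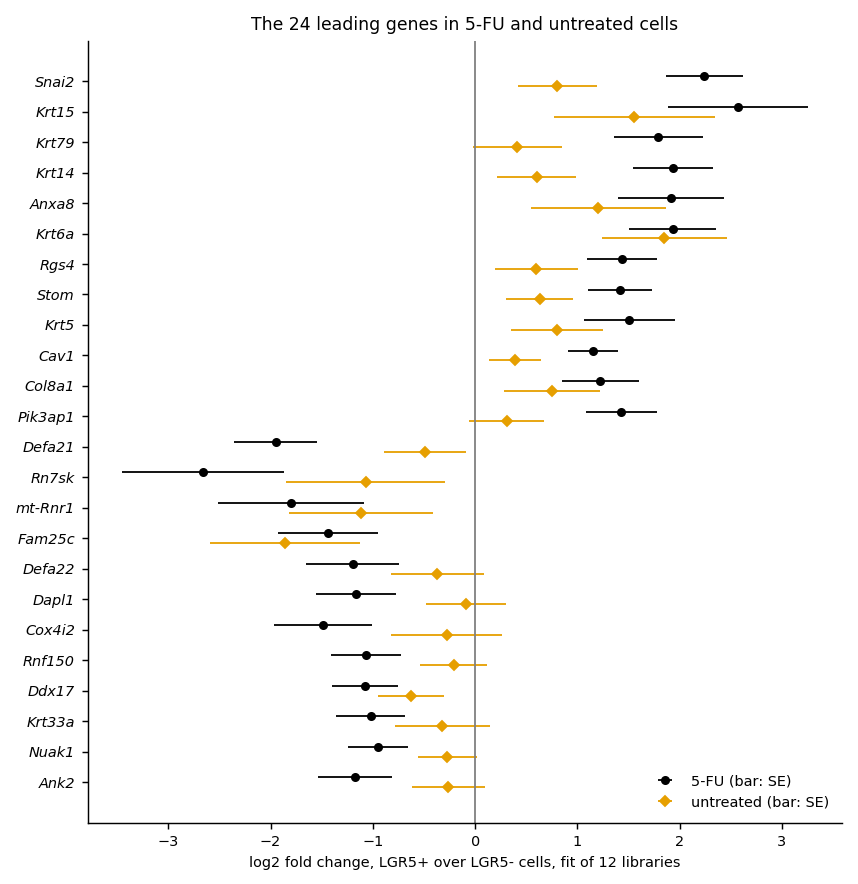
Fitted log2 difference, LGR5+ minus LGR5-, in 5-FU-treated (black circles) and untreated (orange diamonds) organoid cells for the 24 leading genes, chosen on the 5-FU cells; bars are SE from the fit of 12 libraries. Most untreated values lie nearer to 0, *Krt6a* is about equal in both, and bars of the treatments overlap for several genes.

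The smallest p values for a difference between treatments belonged to *Rpl30-ps10*, *Gm10123*, *Adgrg1*, *Lyz2* and *Gm12191*, all above an adjusted p of 0.05. *Adgrg1*, an adhesion G protein-coupled receptor, stood at 27.2, 25.6 and 24.1 CPM in LGR5- and at 53.9, 43.7 and 48.3 CPM in LGR5+ cells after 5-FU (paired adjusted p = 0.0198), with a log2 fold change of 0.92 (SE 0.16) against 0.10 (SE 0.16) in untreated cells. *Lyz2*, a lysozyme of macrophages and alveolar cells, went the other way, with -0.15 (SE 0.33) after 5-FU and 1.62 (SE 0.36) in untreated cells. *Rpl30-ps10*, *Gm10123* and *Gm12191* are processed pseudogenes, whose reads can come from the parent gene. Members just above the limit of 10 CPM were *Cenpv*, *Dnajb14* and *Pole*, with a higher group mean of 10.003, 10.009 and 10.011 CPM, and the genes just below it were *Alg13*, *Nmnat3* and *Fam57a*, each at 9.99 CPM.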

How the data were processed

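Sorted cells were sequenced from SMART-Seq v4 cDNA. The authors deposited 1 table of raw read counts per gene, whole numbers without normalization, and each group has 3 libraries. The submitters' notes name HISAT2, HISAT, TopHat2, HTSeq and the build mm8, with no versions or roles. Of the 47069 gene IDs, 46574 matched GENCODE M21 and took their symbols from it; 495 did not.

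The counts were fitted with edgeR 4.0.16 (quasi-likelihood, robust, TMM, filterByExpr) in R 4.3.3 with limma 3.58.1, over 12 libraries with 4 group means, and p was adjusted by Benjamini-Hochberg over 16157 genes. SE is the absolute log2 fold change over the root of F. Within-pair ratios added 0.5 CPM. A count of 0 allows up to 3 reads, and depth limits cover counting error only. The replicate numbers were taken as pairs in the 5-FU libraries, where deviations from group means correlated at 0.571, 0.217 and 0.304 for equal numbers. Unequal numbers gave -0.395 to 0.117. In untreated cells equal numbers gave 0.481, -0.119 and 0.223. The paired fit took the 6 5-FU libraries with the number as a block.

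Named were *Lgr5*, up to 12 genes in each direction with the largest of the smallest within-pair ratios and an unadjusted p under 0.05, up to 3 genes per list by p, 5 by the difference between treatments and 3 on each side of 10 CPM. Members and lists were chosen with earlier results of these data known. Alternatives were DESeq2 1.42.0, other scalings, filters and limits, and leaving out libraries. The fits were tested on simulated data. Promoters came from RefSeq (GRCm38.p6). Results for some genes are not reported here.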

Additional observations from a re-analysis of the deposited data

How the results depend on the processing

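The count of members at an adjusted p under 0.05, 0 in either direction in the fit of 12 libraries, was 9 higher without a filter on low counts, 47 higher and 6 lower with DESeq2, 2 and 1 with the replicate block in 12 libraries and 186 and 159 with the replicate block in the 6 5-FU libraries. Chosen after seeing the data, the paired fit gave 148 and 96 without replicate 1, 1032 and 580 without replicate 2, 991 and 638 without replicate 3, 249 and 187 with RLE size factors and 48 and 49 with library size only. At the study's thresholds (15 higher, 5 lower) the counts were 6 and 9 when each library had to hold 10 reads, 6 and 2 without replicate 3 of both groups and 24 and 19 at a limit of 5 CPM; those lower were 10 with library size only, 8 with DESeq2 and 11 with the 6 5-FU libraries only. Leaving out 1 library gave 10 to 38 higher and 1 to 18 lower. The rule of 1.5-fold in 3 pairs (109 and 46) gave 3718 and 1791 for any size, 15 and 6 at 2-fold, 194 and 93 without replicate 1, 454 and 177 without replicate 2 and 126 and 52 without replicate 3; those lower were 26 with 2 CPM added and 86 at a limit of 5 CPM. The cause of these changes was not tested. No difference between the treatments was called in any of these settings that gave one.

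The log2 fold change of *Lgr5* (0.11) ranged from -0.066, without LGR5- replicate 2, to 0.42 when 1 library was left out. Of 1758 values of 118 named genes under the alternatives, 1672 kept direction and side of the threshold, 71 passed it and 15 changed sign. With 1 library left out, the genes that changed sign ranged from -0.47 to 0.069 (*Afp*), -0.32 to 0.040 (*Lyz2*), -0.39 to 0.61 (*Hdc*), -0.029 to 0.42 (*Esam*), -0.18 to 0.31 (*Hba-a1*), -0.035 to 0.27 (*Dnajb14*) and -0.41 to 0.83 (*Pole*). Library size only gave -0.031 for *Hdc* and -0.0095 for *Hba-a1*, and leaving out replicate 3 of both groups gave -0.18 for *Hdc* and -0.044 for *Dnajb14*. The lower members with a negative untreated difference were 40 of 46 in the fit of 12 libraries and 19 of 46 in the mean ratio of untreated pairs 1 and 2. The measure changed together with the libraries. A p that misses the threshold does not show that values were equal.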
